A study of Mus musculus with 18 samples.

Results

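The genes examined here encode Toll-like receptors, the membrane proteins through which phagocytes sense molecules of microbes. They are Tlr2, Tlr3, Tlr4, Tlr5, Tlr7, Tlr8, Tlr9, Tlr11, Tlr12 and Tlr13, taken as the probes of the deposited table that the array's annotation assigns to 1 of these symbols alone. Each gene had 1 such probe, which makes 10 of 33793 probes, and 10 of the 22180 genes that could be named and tested. All 10 entered the tests. The array held 12 genes of this family in all, and the other two, Tlr1 and Tlr6, are given below only beside Tlr2, with which their proteins pair.

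Expression was measured on 18 arrays with RNA from phagocytes of the small intestine of VDTR mice, a line in which the villin promoter, active in intestinal epithelial cells, drives a receptor for diphtheria toxin that is joined to green fluorescent protein (GFP). All mice, male and female, had received the toxin intraperitoneally (2 ng per kg) and were sampled after 4 hours, so every group, the GFP-minus ones included, comes from toxin-treated animals and no untreated group is analysed here. Live CD45+ CD11c+ MHCII+ cells were sorted into GFP-plus and GFP-minus cells of 3 populations. The first was CD103+ CD24+ dendritic cells (CD103 DCs), the second was CD103+ CD11b+ CD64+ macrophages (CD103 CD11b CD64 macrophages), and the third was CD11b+ CD64+ macrophages (CD11b CD64 macrophages). This gives 6 groups of 3 arrays. GFP in a sorted phagocyte is read in this design as material taken up from epithelial cells. The labels give an n value of 4 without its meaning, and nothing in them ties the 3 replicates of a group to separate animals. The spread behind each p-value is thus that of these samples, and it may be technical. The number of arrays limits the precision.

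Toll-like receptors recognise their ligands through leucine-rich repeats and pass the signal on through a cytoplasmic TIR domain to the adaptors MyD88 or TRIF, which lead to NF-kB and interferon regulatory factors. TLR2, TLR4 and TLR5 sit at the cell surface and sense bacterial lipoproteins, lipopolysaccharide and flagellin. TLR3, TLR7, TLR8, TLR9 and TLR13 sit in endosomes and sense nucleic acids, and TLR11 and TLR12, also endosomal in the mouse, sense profilin of apicomplexan parasites. In the intestine these cells lie beneath an epithelium that faces a dense microbial community, and CD103 DCs of the XCR1 lineage are known for taking up dying cells and for presenting their antigens.

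A deposited value is taken as a log2 signal from which the median of that probe over the 18 arrays had been removed. A value of 1 is therefore a level 2 times that probe's median, and values of different genes say nothing about which gene is more abundant. The marker genes largely followed the sort. Averaged over both GFP gates, DCs exceeded CD103 CD11b CD64 macrophages by 4.49 ± 0.46 on the log2 scale in Itgae, which encodes CD103, and by 4.46 ± 0.41 in Cd24a. The same difference was -4.87 ± 0.23 in Fcgr1, which encodes CD64, and -4.64 ± 0.17 in Itgam, which encodes CD11b. Of 9 measured conventional DC markers, a list that holds Itgae and Cd24a, 7 passed as higher in DCs than in CD103 CD11b CD64 macrophages. Against CD11b CD64 macrophages 5 of the 9 passed as higher. All 11 measured macrophage markers, Fcgr1 and Itgam among them, passed as lower in both comparisons. The sort was on surface protein, and Itgae RNA was high on only 2 arrays of CD103 CD11b CD64 macrophages. Itgae stood at -0.44, -0.15 and 0.049 on the GFP-plus and at 3.44, -0.43 and 2.66 on the GFP-minus arrays of this population. GFP-minus replicates 1 and 3 of that population also had the highest macrophage values of Cd24a, at 1.65 and 1.37. Whether the macrophages themselves or other cells gave these 2 arrays their Itgae was not tested. Without both of these arrays the difference between DCs and this population was 5.65 ± 0.15 in Itgae and 5.33 ± 0.32 in Cd24a. Of the 10 receptor genes 7 then passed between DCs and these macrophages, against 8 with them.

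Tlr3 and Tlr11 were far higher in CD103 DCs than in either macrophage population, and most of the other Toll-like receptor genes were lower. Against CD103 CD11b CD64 macrophages 8 of the 10 genes passed the test, 2 as higher and 6 as lower in DCs, where 7.93% of all genes passed, 2.6% as higher and 5.33% as lower. Against CD11b CD64 macrophages all 10 passed, 2 as higher and 8 as lower, where 8.12% of all genes passed, 2.17% as higher and 5.94% as lower. The test was limma's moderated test of the mean of both GFP gates, with Benjamini-Hochberg adjustment over all 22180 genes and a threshold of 0.05. The median difference of the 10 genes was -1.97 and -2.11 in these 2 comparisons, against -0.023 and -0.026 for all genes. Both comparisons use the same DC arrays, so they are not separate evidence. In bulk RNA of sorted cells, fewer cells that express a gene and less of its RNA per cell cannot be told apart.

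The promoters of the 4 genes with the largest shifts for which one was at hand, and of Tlr12, the single gene of the family that passed between GFP gates, are shown so that the genes that were higher in DCs can be read beside those that were lower. Each is the 250 bases before the RefSeq start of the gene in the GRCm38.p6 assembly, read 5′ to 3′ on the gene's strand. Capitals mark matches, on either strand, to 5 motifs chosen after the sequences had been read: GAAANNGAA for interferon regulatory factors, GGAANNGAA for ETS and IRF pairs, GAGGAA for PU.1-type ETS factors, GGNNNTTCC for NF-kB and TGANTCA for AP-1.
Tlr3: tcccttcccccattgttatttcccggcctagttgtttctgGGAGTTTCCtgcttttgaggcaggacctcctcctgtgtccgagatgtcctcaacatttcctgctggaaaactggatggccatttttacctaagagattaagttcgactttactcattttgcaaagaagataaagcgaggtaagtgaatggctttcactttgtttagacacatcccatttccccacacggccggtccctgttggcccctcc
Tlr11: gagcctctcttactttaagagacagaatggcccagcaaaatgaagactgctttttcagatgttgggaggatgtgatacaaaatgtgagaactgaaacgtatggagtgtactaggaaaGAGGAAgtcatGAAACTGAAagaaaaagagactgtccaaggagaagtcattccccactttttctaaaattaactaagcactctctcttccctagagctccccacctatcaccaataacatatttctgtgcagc
Tlr2: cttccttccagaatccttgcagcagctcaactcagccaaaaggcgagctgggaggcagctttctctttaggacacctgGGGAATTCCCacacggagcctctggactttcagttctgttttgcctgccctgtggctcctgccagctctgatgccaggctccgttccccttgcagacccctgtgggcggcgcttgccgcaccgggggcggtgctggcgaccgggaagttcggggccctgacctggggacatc
Tlr8: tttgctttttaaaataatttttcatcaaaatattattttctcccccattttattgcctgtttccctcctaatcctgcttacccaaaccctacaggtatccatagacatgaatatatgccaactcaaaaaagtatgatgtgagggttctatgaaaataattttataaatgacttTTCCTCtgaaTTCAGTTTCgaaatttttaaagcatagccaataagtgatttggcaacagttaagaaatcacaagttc
Tlr12: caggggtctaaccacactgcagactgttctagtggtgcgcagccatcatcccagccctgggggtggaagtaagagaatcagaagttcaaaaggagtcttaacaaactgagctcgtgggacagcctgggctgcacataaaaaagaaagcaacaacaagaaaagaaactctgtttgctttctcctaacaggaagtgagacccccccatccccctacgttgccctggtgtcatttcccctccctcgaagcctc
Tlr3 lies at chr8:45410381-45410630 on the minus strand and Tlr11 at chr14:50357664-50357913 on the plus strand. Tlr2 lies at chr3:83841609-83841858, Tlr8 at chrX:167264330-167264579 and Tlr12 at chr4:128618620-128618869, all 3 on the minus strand. Of the 10 genes 8 had an entry in the promoter table, and Tlr4 and Tlr7 are named only. The IRF motif was found in Tlr8 and Tlr11, and in 7.13% of all 32851 promoters. The PU.1-type motif was found in Tlr8, Tlr9, Tlr11 and Tlr13, against 23.3% of all promoters, and the NF-kB motif in Tlr2, Tlr3 and Tlr5, against 15.7%. The AP-1 motif was found in Tlr9, against 6.75% of all promoters, and the ETS and IRF pair in none of the 8, against 6.99%. The window of Tlr12 held no match to the 5 motifs. GAGGAA and GGAANNGAA share the letters GGAA, so their matches can overlap. Matches were found both in genes that were higher in DCs and in genes that were lower.

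**Figure D1:**
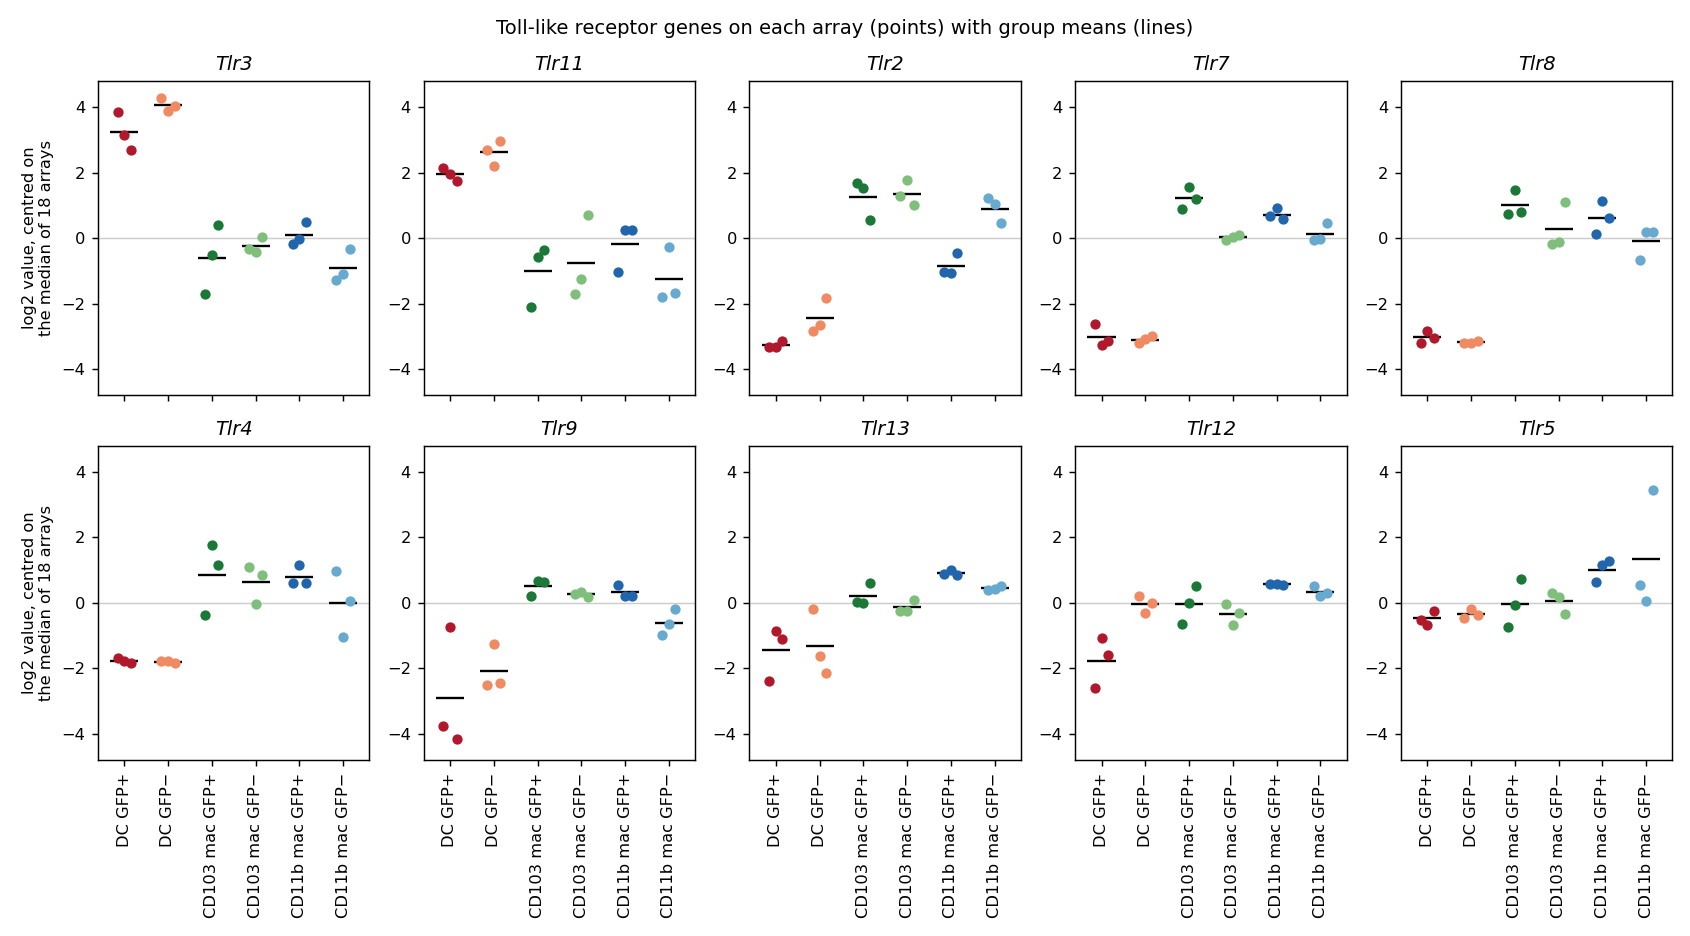
Values of the 10 Toll-like receptor genes on each of the 18 arrays. The vertical axis is the log2 value centred on the probe's median over all arrays, each point is 1 array, black lines are group means of 3 arrays, and groups run from DCs to CD11b CD64 macrophages with GFP-plus left of GFP-minus. Tlr3 and Tlr11 are high on all 6 DC arrays, Tlr2, Tlr7, Tlr8 and Tlr4 are low on all 6, and Tlr12 is low on the GFP-plus DC arrays only.

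Tlr3, whose product senses double-stranded RNA and signals through TRIF, had the largest positive difference of the family. Its values were 3.86, 3.16 and 2.69 on the GFP-plus and 4.29, 3.90 and 4.04 on the GFP-minus DC arrays. In CD103 CD11b CD64 macrophages they were -1.70, -0.52 and 0.40 in GFP-plus and -0.33, -0.41 and 0.022 in GFP-minus cells, and in CD11b CD64 macrophages -0.17, -0.022 and 0.50 in GFP-plus and -1.28, -1.09 and -0.32 in GFP-minus cells. The lowest DC array lay over 2 log2 units above the highest macrophage array. DCs exceeded CD103 CD11b CD64 macrophages by 4.08 ± 0.31 (SE), a 16.9-fold difference with a limma adjusted p of 3.57e-07. Against CD11b CD64 macrophages the difference was 4.06 ± 0.31, with a limma adjusted p of 3.68e-07.

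Tlr11, a receptor for parasite profilin, had the same order of groups as Tlr3. DC arrays held 2.13, 1.97 and 1.75 in GFP-plus and 2.68, 2.20 and 2.97 in GFP-minus cells. CD103 CD11b CD64 macrophages held -2.09, -0.58 and -0.37 in GFP-plus and -1.70, -1.25 and 0.71 in GFP-minus cells, and CD11b CD64 macrophages -1.04, 0.26 and 0.26 in GFP-plus and -1.78, -0.26 and -1.67 in GFP-minus cells. All DC arrays lay above all macrophage arrays, of which the third GFP-minus replicate of CD103 CD11b CD64 macrophages, at 0.71, was the highest. Tlr11 was 8.98-fold higher in DCs than in CD103 CD11b CD64 macrophages (log2 difference 3.17 ± 0.44, limma adjusted p 0.000213). It was 7.95-fold higher in DCs than in CD11b CD64 macrophages (log2 difference 2.99 ± 0.44, limma adjusted p 0.000353).

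Among the surface receptors, Tlr2 had the largest negative difference. Tlr2 values were -3.33, -3.31 and -3.15 in GFP-plus and -2.84, -2.66 and -1.82 in GFP-minus DCs. They were 1.68, 1.52 and 0.55 in GFP-plus and 1.27, 1.78 and 1.03 in GFP-minus CD103 CD11b CD64 macrophages. GFP-plus CD11b CD64 macrophages stood apart from the other macrophages, at -1.03, -1.07 and -0.45, against 1.21, 1.03 and 0.45 in GFP-minus CD11b CD64 macrophages. No DC array reached the lowest macrophage array. The difference was -4.16 ± 0.24 between DCs and CD103 CD11b CD64 macrophages, 17.8-fold lower in DCs (limma adjusted p 1.51e-08), and -2.87 ± 0.24 between DCs and CD11b CD64 macrophages (limma adjusted p 9.05e-07). Under quantile normalization of the arrays the second of these was -1.46. The genes of the TLR2 partners were lower in DCs as well. Tlr1 differed by -3.81 ± 0.63 and -3.78 ± 0.63 and Tlr6 by -1.98 ± 0.56 and -2.88 ± 0.56 from CD103 CD11b CD64 and CD11b CD64 macrophages in that order, with limma adjusted p-values between 0.00112 and 0.0417.

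Tlr4, the lipopolysaccharide receptor, spread widely among macrophages and hardly at all among DCs. Its 6 DC arrays lay between -1.83 and -1.68, an SD of 0.056, while the 12 macrophage arrays ran from -1.04 to 1.76, an SD of 0.78. The centred values carry no background level, so whether Tlr4 was above background in DCs was not tested. Tlr4 was lower in DCs, at -2.52 ± 0.36 against CD103 CD11b CD64 macrophages (limma adjusted p 0.00028) and -2.17 ± 0.36 against CD11b CD64 macrophages (limma adjusted p 0.00106). Among GFP-minus cells alone the difference from CD11b CD64 macrophages was -1.79 with a limma adjusted p of 0.0828, and that group holds the lowest macrophage array, at -1.04.

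Tlr5, the flagellin receptor, gave the weakest of the contrasts with DCs. Its DC arrays ran from -0.69 to -0.20, those of CD103 CD11b CD64 macrophages from -0.75 to 0.73, and those of CD11b CD64 macrophages from 0.059 to 3.43. The top value was a single array, the third GFP-minus replicate of CD11b CD64 macrophages, and the next highest array was at 1.27. Against CD103 CD11b CD64 macrophages the difference was -0.42 ± 0.45, with a 95% interval of -1.38 to 0.54 and a limma adjusted p of 0.715. Against CD11b CD64 macrophages it was -1.59 ± 0.45 with a limma adjusted p of 0.0412, which became 0.0896 under quantile normalization and lay between 0.0602 and 0.0954 when any 1 of 9 single arrays was left out, so the call rests on the setting. Tlr5 was also the single gene of the family that did not pass the limma F-test among the 6 groups (adjusted p 0.269), which the other 9 passed, where 7.92% of all genes did. Without the 4 arrays of lowest weight Tlr9 did not pass either (adjusted p 0.0853).

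**Figure D2:**
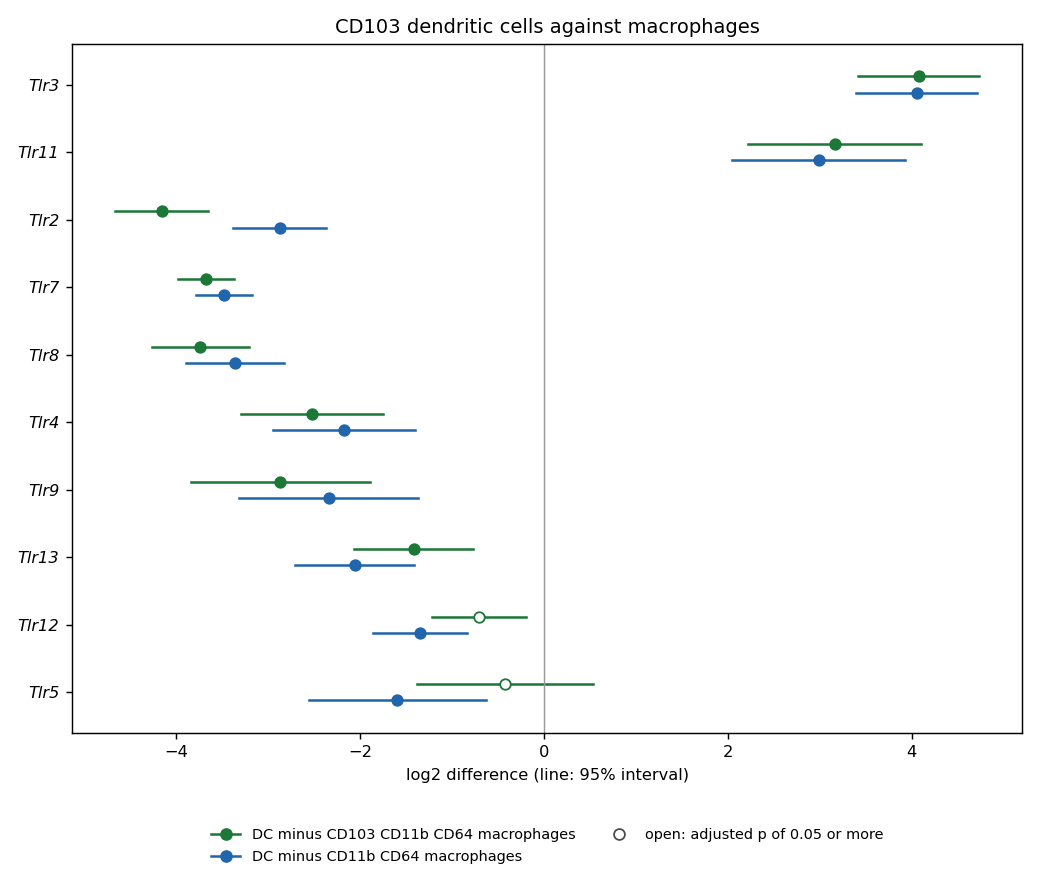
Log2 differences of the 10 Toll-like receptor genes between CD103 DCs and the 2 macrophage populations, each the mean of both GFP gates. Points are limma estimates, lines their 95% intervals, and open points did not pass at an adjusted p under 0.05. Tlr3 and Tlr11 lie right of 0, between 2.99 and 4.08, the other genes lie left of it, and Tlr5 and Tlr12 are open against CD103 CD11b CD64 macrophages.

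Of the endosomal receptors of nucleic acids, Tlr7 and Tlr8, both for single-stranded RNA, were far lower in DCs. The 2 genes are neighbours on chromosome X, with no gene between them in GRCm38.p6. Tlr7 was at -2.64, -3.25 and -3.15 in GFP-plus and -3.21, -3.09 and -3.00 in GFP-minus DCs. In CD103 CD11b CD64 macrophages it was at 0.88, 1.57 and 1.19 (GFP-plus) and -0.069, 0.025 and 0.11 (GFP-minus). It was at 0.67, 0.91 and 0.59 in GFP-plus and -0.057, -0.025 and 0.45 in GFP-minus CD11b CD64 macrophages. Every DC array was more than 2 log2 units below every macrophage array. The difference of -3.67 ± 0.14 from CD103 CD11b CD64 macrophages (limma adjusted p 1.82e-10) ranked 33 of 22180 genes by p-value, and that from CD11b CD64 macrophages was -3.48 ± 0.14 (limma adjusted p 3.54e-10).

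In the split between DCs and macrophages Tlr8 followed Tlr7 closely. It was at -3.19, -2.84 and -3.05 in GFP-plus and -3.19, -3.19 and -3.13 in GFP-minus DCs, a spread of 0.34 over the 6 arrays. Among CD103 CD11b CD64 macrophages it was at 0.74, 1.48 and 0.80 in GFP-plus and -0.16, -0.12 and 1.10 in GFP-minus cells. The values were 0.12, 1.14 and 0.62 in GFP-plus and -0.68, 0.19 and 0.19 in GFP-minus CD11b CD64 macrophages. As with Tlr7, DC and macrophage arrays did not meet. Whether Tlr7 and Tlr8 were above background in DCs was not tested. Tlr8 was lower in DCs, at -3.74 ± 0.25 against CD103 CD11b CD64 macrophages and -3.36 ± 0.25 against CD11b CD64 macrophages (limma adjusted p 9.14e-08 and 2.69e-07).

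Tlr9, the receptor for unmethylated CpG DNA, was lower in DCs but varied most there. Its values were -3.78, -0.75 and -4.17 in GFP-plus and -2.51, -1.26 and -2.45 in GFP-minus DCs, and the 12 macrophage arrays lay between -0.999 and 0.67. The second replicate was the highest array in both DC gates, and in GFP-plus DCs it was within the range of the macrophages. Tlr9 differed by -2.87 ± 0.45 from CD103 CD11b CD64 macrophages (limma adjusted p 0.000735) and by -2.34 ± 0.45 from CD11b CD64 macrophages (limma adjusted p 0.00361). Within GFP-plus cells alone both differences passed, at -3.4 and -3.22 (limma adjusted p 0.00388 and 0.00514). Within GFP-minus cells alone neither did, at -2.33 and -1.47 (limma adjusted p 0.0645 and 0.34).

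Tlr13, which senses bacterial ribosomal RNA in the mouse, was at -2.39, -0.86 and -1.10 in GFP-plus and -0.19, -1.62 and -2.15 in GFP-minus DCs. It was highest in CD11b CD64 macrophages, at 0.86, 1.00 and 0.85 in GFP-plus and 0.37, 0.42 and 0.53 in GFP-minus cells, and the 6 arrays of CD103 CD11b CD64 macrophages ran from -0.26 to 0.60. One GFP-minus DC array, at -0.19, overlapped CD103 CD11b CD64 macrophages, and none reached CD11b CD64 macrophages. The differences were -1.42 ± 0.30 (limma adjusted p 0.00816) and -2.06 ± 0.30 (limma adjusted p 0.000368). The first was -1.18 within GFP-minus cells alone (limma adjusted p 0.193). It was -1.35 without GFP-minus replicates 1 and 3 of CD103 CD11b CD64 macrophages, the arrays of high Itgae (limma adjusted p 0.0657).

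Tlr12, the other profilin receptor, did not share the pattern of Tlr11. Its values were -2.60, -1.08 and -1.61 in GFP-plus DCs, against 0.22, -0.30 and -0.0032 in GFP-minus DCs. CD103 CD11b CD64 macrophages held -0.66, 0.0032 and 0.50 in GFP-plus and -0.033, -0.67 and -0.31 in GFP-minus cells, and CD11b CD64 macrophages 0.57, 0.56 and 0.55 in GFP-plus and 0.52, 0.20 and 0.28 in GFP-minus cells. The 3 GFP-plus DC arrays lay below all other arrays, and the 3 GFP-plus arrays of CD11b CD64 macrophages lay just above all others. Over both gates the difference from CD103 CD11b CD64 macrophages was -0.70 ± 0.24 (limma adjusted p 0.103), and that from CD11b CD64 macrophages was -1.34 ± 0.24 (limma adjusted p 0.00181). The first passed with array weights (adjusted p 0.0144), without the 4 arrays of lowest weight (0.015), without GFP-plus DC replicate 2 (0.0257) and without GFP-plus replicate 1 of CD103 CD11b CD64 macrophages (0.0347). Within GFP-plus cells the 2 differences were -1.71 and -2.32 (limma adjusted p 0.00527 and 0.000383), and within GFP-minus cells they were 0.31 and -0.37 (limma adjusted p 0.803 and 0.76). The mean over both gates therefore describes neither gate of Tlr12.

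Counted by arrays, 7 of the 10 genes had DC arrays that did not overlap those of CD103 CD11b CD64 macrophages, against 3.83% of all genes, and 8 did not overlap those of CD11b CD64 macrophages, against 5.05% of all genes. By location, 2 of the 3 surface receptors and 4 of the 7 endosomal receptors were lower in DCs than in CD103 CD11b CD64 macrophages, and both receptors that were higher are endosomal. Against CD11b CD64 macrophages 3 of 3 surface and 5 of 7 endosomal receptors were lower. Of all genes 5.33% and 5.94% passed as lower in these 2 comparisons. The count of surface receptors against CD11b CD64 macrophages holds Tlr5, which lost its call in 15 of 21 settings.

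GFP-plus and GFP-minus DCs differed in 1 of the 10 genes, Tlr12, where 1.58% of all genes passed, 1.26% as lower and 0.325% as higher. Tlr12 was 3.33-fold lower in GFP-plus than in GFP-minus DCs, a log2 difference of -1.74 ± 0.34 with a 95% interval of -2.46 to -1.01 and a limma adjusted p of 0.0225. The 3 GFP-plus arrays lay below all 3 GFP-minus arrays. The call ended under quantile normalization, at -0.89 (limma adjusted p 0.141), and when the 6 DC arrays were fitted alone (limma adjusted p 0.181). It also ended without GFP-plus replicate 1 (adjusted p 0.0598) or without GFP-minus replicate 1, 2 or 3 (adjusted p 0.0569, 0.0523 and 0.0716).

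In Tlr2, Tlr3, Tlr11 and Tlr12, 4 of the 10 genes, the GFP-plus DC arrays lay wholly below the GFP-minus ones, where 20.1% of all genes did not overlap, in either direction. The difference was -0.82 ± 0.33 for Tlr2, -0.84 ± 0.43 for Tlr3 and -0.67 ± 0.62 for Tlr11, with limma adjusted p-values of 0.249, 0.376 and 0.66. None of these 3 passed. Tlr9 was at -0.83 ± 0.64 (limma adjusted p 0.583), and without the high GFP-plus replicate 2 it was -1.9 with an adjusted p of 0.00993. For Tlr4, Tlr5, Tlr7, Tlr8 and Tlr13 the differences lay between -0.13 and 0.14. Over the 6 DC arrays the SD was 0.056 for Tlr4, 0.23 for Tlr7 and 0.14 for Tlr8. Whether these genes were above background in DCs was not tested. Marker lists of other cells moved with the same gate. The mean of 10 B and plasma cell markers was -0.53, -0.65 and -0.76 on GFP-plus arrays, against -0.067, -0.14 and -0.055 on GFP-minus arrays, and 1 of the 10 passed, as lower. The mean of 13 T and innate lymphocyte markers was -0.49, -0.18 and -0.41 on GFP-plus arrays, against 0.094, 0.83 and 0.84 on GFP-minus arrays, and 1 of the 13 passed, as lower. The mean of 8 plasmacytoid DC markers was -0.70, -0.77 and -0.42 on GFP-plus arrays, against -0.25, 0.20 and -0.18 on GFP-minus arrays, and none passed. That of 11 macrophage markers was -4.68, -4.37 and -4.34 on GFP-plus arrays, against -4.26, -3.37 and -3.72 on GFP-minus arrays, with 2 passing as lower. The mean of 8 monocyte markers was -0.49, -0.53 and -1.18 on GFP-plus arrays, against -0.18, 0.19 and 0.26 on GFP-minus arrays, and none passed. The means of all 5 lists lay lower on every GFP-plus array than on any GFP-minus array, while the mean of 15 epithelial markers stood higher, at 0.61, 0.59 and 0.45 on GFP-plus arrays, against -0.37, -0.13 and -0.17 on GFP-minus arrays. The mean of 11 neutrophil and eosinophil markers was also higher, at -0.24, -0.27 and 0.19 on GFP-plus arrays, against -0.27, -0.38 and -0.50 on GFP-minus arrays, although 1 of the 11 passed, as lower. The part of these cells in the differences of Tlr12, Tlr2 and Tlr9 between the gates was not tested. The GFP-plus DC arrays also had wider interquartile ranges over all probes, 0.578, 0.394 and 0.474, against 0.375, 0.278 and 0.293 on GFP-minus arrays. Of all genes 279 passed as lower and 72 as higher, and 24 in each direction under quantile normalization. The part of this spread in the differences between the gates was not tested.

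**Figure D3:**
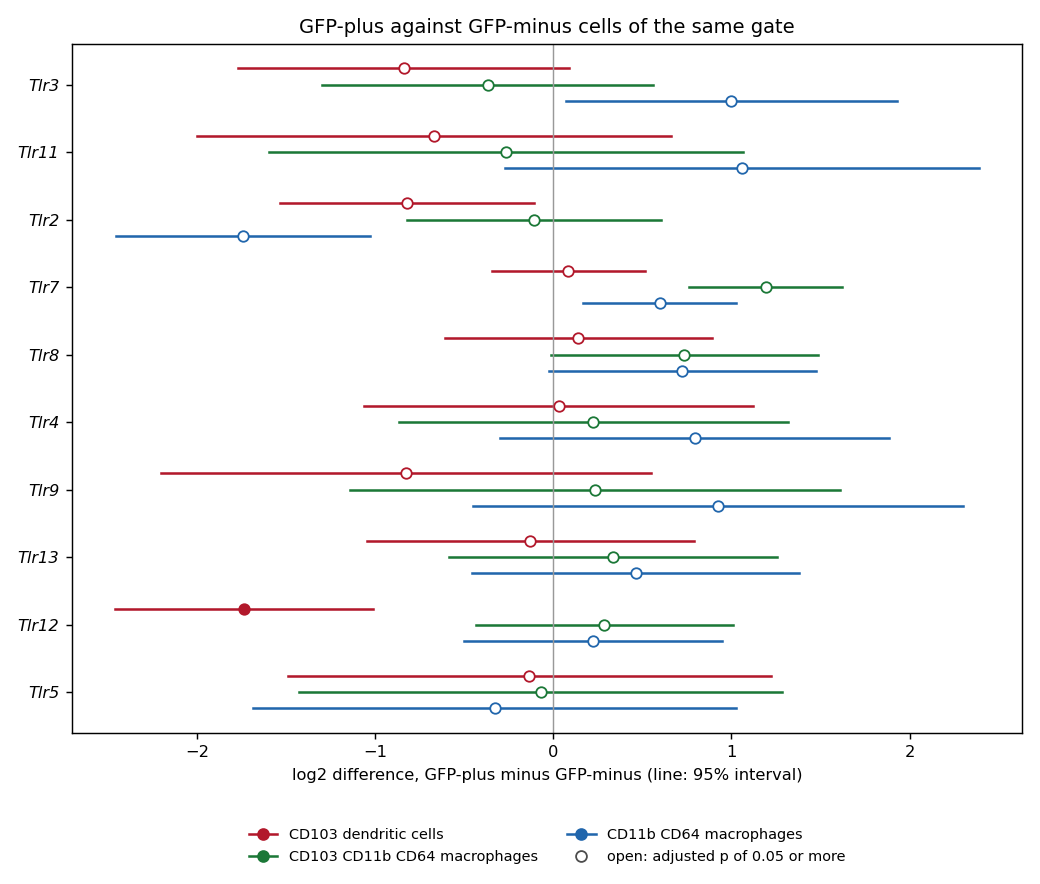
Log2 differences of the 10 Toll-like receptor genes between GFP-plus and GFP-minus cells of each population. Points are limma estimates, lines their 95% intervals, and open points did not pass at an adjusted p under 0.05. The filled point is Tlr12 in CD103 DCs, at -1.74, and among the open points the intervals of Tlr2 in DCs, of Tlr7 in CD103 CD11b CD64 macrophages and of Tlr2, Tlr3 and Tlr7 in CD11b CD64 macrophages also lie clear of 0.

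Between the GFP gates of CD103 CD11b CD64 macrophages none of the 10 genes passed, where 0.0541% of all genes did, 0.0271% in each direction, and 1 gene, Tlr7, reached an unadjusted limma p under 0.05. Tlr7 lay at 1.19 ± 0.20 between GFP-plus and GFP-minus cells, 2.29-fold, with a 95% interval of 0.76 to 1.62 and a limma adjusted p of 0.0505. All 3 GFP-plus arrays lay above all 3 GFP-minus arrays, and in no other gene of the family were the 2 gates apart. In 13% of all genes they were apart in either direction. The adjusted p fell on the other side of 0.05 under quantile normalization (0.0475), with array weights (0.0154), without the 4 arrays of lowest weight (0.0347) and with 1 probe per gene (0.0491). Leaving out replicate 3 of the GFP-minus cells (0.049) or replicate 1 of the GFP-plus cells (0.0296) did the same. Under the other 8 of 14 settings Tlr7 did not pass. With only the arrays of the 2 gates fitted, 0 of all 22180 genes passed. Its neighbour Tlr8 was at 0.74 ± 0.35 (limma adjusted p 0.556), and the remaining 8 genes lay between -0.37 and 0.33. On the same arrays the mean of 13 T and innate lymphocyte markers was -0.11, 0.57 and 0.54 in GFP-plus cells, against 1.16, 1.21 and 2.73 in GFP-minus cells, with 1 of 13 passing as lower. The mean of 8 monocyte markers was -0.58, -0.15 and -0.23 in GFP-plus cells, against 0.62, 0.53 and 1.14 in GFP-minus cells, with none passing. Both lists lay lower on GFP-plus arrays. The mean of 9 conventional DC markers was -1.35, -0.47 and -0.50 in GFP-plus cells, against 0.37, -0.51 and 0.33 in GFP-minus cells, with none passing. GFP-minus replicates 1 and 3, the arrays with high Itgae, were highest in this mean. The list holds Itgae and Cd24a themselves, so this is not separate from their high values on these arrays. Without both arrays Tlr7 was at 1.19, with 1 GFP-minus array left. The part of the 3 lists in the value of Tlr7 was not tested otherwise.

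In CD11b CD64 macrophages again none of the 10 genes passed between GFP gates, where 0.0271% of all genes did, 0.0135% in each direction, and 3 genes, Tlr2, Tlr3 and Tlr7, had an unadjusted limma p under 0.05. Tlr2 had the largest difference, -1.74 ± 0.33, with GFP-plus arrays at -1.03, -1.07 and -0.45, against 1.21, 1.03 and 0.45 for GFP-minus arrays. Its 95% interval was -2.46 to -1.03 and its limma adjusted p 0.174, at rank 15 of all genes by p-value. Quantile normalization put it at -2.75 (adjusted p 0.00636) and array weights at -1.72 (adjusted p 0.0454). Under the other 11 of 13 settings, each single array left out among them, Tlr2 did not pass, with limma adjusted p-values of up to 0.623. Tlr7 was at 0.60 ± 0.20 and Tlr3 at 1.00 ± 0.43 (limma adjusted p 0.618 and 0.787). The estimate was positive in 8 of the 10 genes, the exceptions being Tlr2 and Tlr5, and the median of the 10 was 0.66, against 0.011 for all genes. Over the 11090 genes of larger SD the median was 0.205. In 6 genes, Tlr2, Tlr3, Tlr7, Tlr9, Tlr12 and Tlr13, the 2 gates did not overlap, where 15.9% of all genes did not. The mean of 8 monocyte markers was -0.17, -0.45 and -0.52 on GFP-plus arrays, against 0.64, 0.70 and 1.13 on GFP-minus arrays, and 1 of the 8 passed, as lower. This list moved in the direction of Tlr2. The mean of 11 macrophage markers was 0.42, 0.43 and 0.43 on GFP-plus arrays, against -0.066, 0.13 and 0.096 on GFP-minus arrays. That of 15 epithelial markers was 0.59, 0.23 and 0.15 on GFP-plus arrays, against -0.11, -0.11 and -0.094 on GFP-minus arrays, and none of either list passed. The part of these 3 lists in the values of the receptor genes was not tested.

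Whether the GFP difference itself varied between the 3 populations was tested by a limma F-test, which none of the 10 genes passed and 0.361% of all genes did. The smallest adjusted p-values were 0.105 for Tlr12, 0.193 for Tlr7, 0.252 for Tlr2 and 0.31 for Tlr3, all 4 with an unadjusted p under 0.05. For Tlr12 the GFP difference was -1.74 in DCs, 0.29 in CD103 CD11b CD64 macrophages and 0.22 in CD11b CD64 macrophages. For Tlr3 it was -0.84, -0.37 and 1.00 in the same order. The F-test of Tlr12 passed with array weights (adjusted p 0.0402), without GFP-plus DC replicate 2 (0.0295) or without GFP-plus replicate 1 of CD103 CD11b CD64 macrophages (0.0415). Tlr9 passed without GFP-plus DC replicate 2 (adjusted p 0.0198, against 0.616 with it), and Tlr2 under quantile normalization (0.0455).

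The 2 macrophage populations did not differ in any of the 10 genes by the test, where 0.0721% of all genes passed, 0.0631% as higher and 0.00902% as lower, and 3 genes, Tlr2, Tlr5 and Tlr12, had an unadjusted limma p under 0.05. Itgae, the gene of the CD103 gate that sets them apart, did not pass either, at 1.19 ± 0.46 (limma adjusted p 0.79). Without GFP-minus replicates 1 and 3 of CD103 CD11b CD64 macrophages Itgae was at 0.029. Tlr2 was 1.28 ± 0.24 between CD103 CD11b CD64 and CD11b CD64 macrophages (limma adjusted p 0.0984). Among GFP-plus cells it was 2.10 (adjusted p 0.0464), and among GFP-minus cells 0.47 (adjusted p 0.999). It also passed under quantile normalization, at 1.79 (adjusted p 0.0096), and without GFP-plus replicate 3 of CD103 CD11b CD64 macrophages, at 1.46 (adjusted p 0.0138). Tlr5 was at -1.17 ± 0.45 and Tlr12 at -0.64 ± 0.24 (limma adjusted p 0.775 and 0.742). For Tlr3 and Tlr7 the 95% intervals were -0.68 to 0.63 and -0.11 to 0.50. In none of the 10 genes did the arrays of the 2 populations lie apart, against 0.334% of all genes.

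Ordered by group means, Tlr3 and Tlr11 ran from GFP-minus DCs over GFP-plus DCs to the 4 macrophage groups, whose neighbours in that order overlapped. Tlr7 and Tlr8 were highest in GFP-plus CD103 CD11b CD64 macrophages, then in GFP-plus CD11b CD64 macrophages, and in both genes the step down to the DC groups separated all arrays. Tlr13 was highest in GFP-plus CD11b CD64 macrophages, clear of the GFP-minus ones, and all its lower neighbours overlapped. The gap between the highest and the lowest group mean was 4.97 log2 units for Tlr3, 4.62 for Tlr2 and 4.31 for Tlr7, against 1.82 for Tlr5.

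Genes whose products serve these receptors are given by role. The shares of all genes that passed as higher and as lower, 2.6% and 5.33% against CD103 CD11b CD64 macrophages and 2.17% and 5.94% against CD11b CD64 macrophages, are the background of each list below. Of 12 measured genes for adaptors and co-receptors 1 was higher and 5 were lower in DCs than in CD103 CD11b CD64 macrophages, and 2 were higher and 3 lower than in CD11b CD64 macrophages. The median differences were -0.37 and -0.21. Cd14, whose product hands lipopolysaccharide to TLR4, was at -4.36 ± 0.27 and -4.36 ± 0.27 (limma adjusted p 4.99e-08 and 5e-08). Ly96, which encodes MD-2, the part of the TLR4 complex that binds lipopolysaccharide, was at -1.94 ± 0.39 and -2.48 ± 0.39 (adjusted p 0.00514 and 0.000637). Thus 3 genes of the lipopolysaccharide receptor, Tlr4, Cd14 and Ly96, were lower in DCs than in either macrophage population. Tirap, the adaptor that brings MyD88 to TLR2 and TLR4, was lower, at -1.02 ± 0.22, against CD103 CD11b CD64 macrophages (adjusted p 0.00765). Against CD11b CD64 macrophages it was at -0.29 ± 0.22 (adjusted p 0.564). Cd36, a co-receptor of TLR2, was higher in DCs, by 1.24 ± 0.31 and 2.67 ± 0.31 (adjusted p 0.0238 and 4.03e-05). The products of Ly86 and Cd180, MD-1 and RP105, form a complex. Ly86 was lower in DCs in both comparisons, at -2.01 ± 0.48 and -1.86 ± 0.48 (adjusted p 0.0162 and 0.0254). Cd180 was at 0.30 ± 0.21 and 0.86 ± 0.21 (adjusted p 0.514 and 0.0164), and passed as higher against CD11b CD64 macrophages.

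Of 13 genes for trafficking and processing of endosomal receptors none was higher and 6 were lower in DCs in each of the 2 comparisons, with medians of -0.62 and -1.25. The 4 with the smallest p-values encode lysosomal proteases, of which cathepsins and asparagine endopeptidase are known to cleave endosomal Toll-like receptors. Lgmn, for asparagine endopeptidase, was at -4.19 ± 0.28 and -4.31 ± 0.28, and Ctsl at -3.93 ± 0.21 and -4.42 ± 0.21. Ctsb was at -2.84 ± 0.17 and -2.92 ± 0.17, and Ctss at -1.32 ± 0.13 and -1.52 ± 0.13, and all 8 limma adjusted p-values were at most 7.21e-06. Unc93b1, the carrier that takes TLR3, TLR7, TLR9, TLR11 and TLR13 from the endoplasmic reticulum to endosomes, was at -1.41 ± 0.17 and -1.33 ± 0.17 (adjusted p 6.39e-05 and 0.000101). It stood at -2.14, -0.93 and -1.89 in GFP-plus and -0.58, -0.59 and -0.73 in GFP-minus DCs, below all 12 macrophage arrays. Unc93b1 was thus lower in the same cells in which Tlr3 and Tlr11, genes of receptors it carries, were higher.

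Of 19 measured genes for signalling kinases and factors 1 was higher and 3 were lower in DCs in each comparison, with medians of -0.20 and -0.23. Irf8, an interferon regulatory factor required for the development of these DCs, was higher by 1.80 ± 0.11 and 1.52 ± 0.11 (limma adjusted p 5.96e-08 and 3.71e-07). Ikbke, for the kinase IKK-epsilon, was at -2.72 ± 0.20 and -2.44 ± 0.20, Irak2, a kinase of the MyD88 complex, at -1.75 ± 0.36 and -2.04 ± 0.36, and Pik3ap1 at -0.80 ± 0.17 and -0.91 ± 0.17, with limma adjusted p-values of at most 0.00682. Of 16 negative regulators none was higher and 6 were lower than in CD103 CD11b CD64 macrophages, and 3 were lower than in CD11b CD64 macrophages, with medians of -0.14 and -0.31. Tnfaip3, which encodes the deubiquitinase A20, was at -1.37 ± 0.27 and -1.41 ± 0.27, and Zc3h12a, for an RNase that degrades cytokine mRNA, at -1.79 ± 0.28 and -1.40 ± 0.28. The phosphatase gene Dusp1 was at -0.86 ± 0.13 and -0.76 ± 0.13, and Nfkbia, for the NF-kB inhibitor IkB-alpha, was at -0.63 ± 0.12 in the first comparison (limma adjusted p of these 7 values at most 0.00441). Against CD11b CD64 macrophages Nfkbia was at -0.23 ± 0.12 (adjusted p 0.361).

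Of 24 genes known to be induced through Toll-like receptors 2 were higher and 14 lower in DCs in each comparison, with medians of -1.47 and -1.44. Il10 was at -4.67 ± 0.29 and -4.10 ± 0.29, Ptgs2, for cyclooxygenase-2, at -3.98 ± 0.26 and -4.45 ± 0.26, and the chemokine gene Cxcl1 at -4.11 ± 0.28 and -3.68 ± 0.28. Cxcl10 was at -1.64 ± 0.18 and -2.19 ± 0.18. Il12b, for the p40 subunit of interleukin-12, was higher in DCs, by 2.99 ± 0.25 and 2.91 ± 0.25, and all 10 limma adjusted p-values were at most 2.68e-05.

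**Figure D4:**
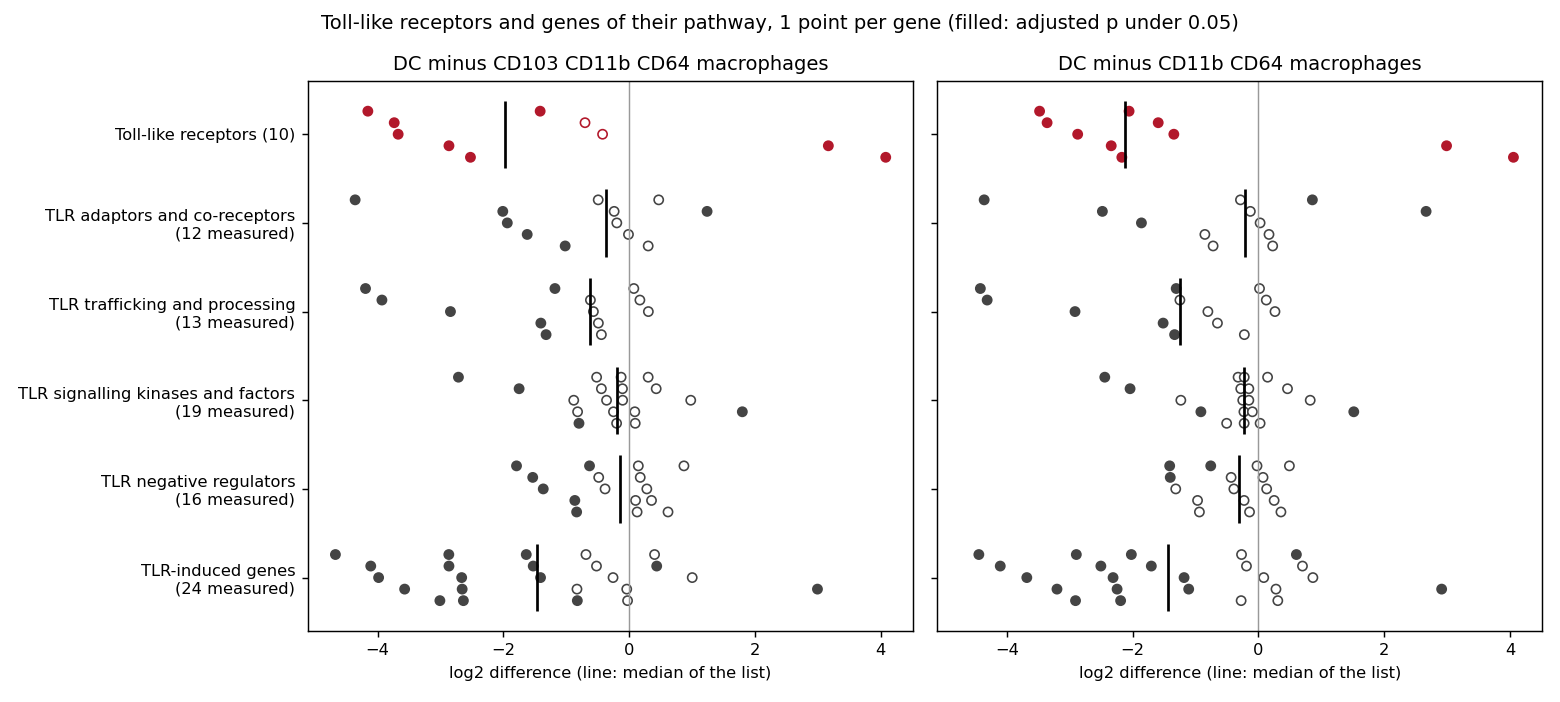
Log2 differences between CD103 DCs and each macrophage population for the 10 Toll-like receptor genes and 5 lists of genes of their pathway. Each point is 1 gene (height within a row has no meaning), filled points passed limma at an adjusted p under 0.05, and vertical lines are list medians. The receptor row has its median at -1.97 and -2.11 with 2 genes far to the right, trafficking and induced genes also lean left, and signalling genes centre near 0.

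Between the GFP gates of DCs 6 pathway genes passed, 1 of 13 trafficking genes, 1 of 19 signalling genes, 1 of 16 negative regulators and 3 of 24 induced genes, where 1.58% of all genes did. Il12b was at 2.99 ± 0.35 and Tnf at 1.71 ± 0.35, both higher in GFP-plus DCs, and Il1a was at -2.22 ± 0.36 (limma adjusted p 0.00073, 0.0308 and 0.00959). Tnfaip3 was higher by 1.79 ± 0.38 (adjusted p 0.0328). A pair of genes besides Il1a fell in GFP-plus DCs: Rab7b, for a GTPase that sends TLR4 and TLR9 to lysosomes, was at -2.42 ± 0.52 (adjusted p 0.0348), and Btk, for a kinase downstream of several of the receptors and a gene of B cells as well as myeloid cells, was at -2.42 ± 0.42 (adjusted p 0.0142). The B and plasma cell markers given above were lower on the same arrays, and their part in the value of Btk was not tested. Among adaptors and co-receptors none passed, and Rftn1 came closest at 2.30 ± 0.61 (adjusted p 0.0814).

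In the macrophages no pathway gene passed between GFP gates. Of all genes 0.0541% did in CD103 CD11b CD64 macrophages and 0.0271% in CD11b CD64 macrophages, so the absence of calls lies near the background. In CD103 CD11b CD64 macrophages the gene with the smallest p of each list was Myd88 at -1.99 ± 0.64, Hsp90b1 at 0.78 ± 0.21, Rel at 0.84 ± 0.21, Socs1 at -1.02 ± 0.56 and Il12b at 1.32 ± 0.35, with limma adjusted p-values of at least 0.174. In CD11b CD64 macrophages it was Tirap at 0.66 ± 0.31, Unc93b1 at 0.51 ± 0.24, Irf8 at 0.39 ± 0.16, Inpp5d at 1.54 ± 0.53 and Cxcl10 at 0.56 ± 0.26, with limma adjusted p-values of at least 0.639. All 13 trafficking genes and 18 of 19 signalling genes had positive estimates in CD11b CD64 macrophages, with medians of 0.40 and 0.37, against 0.011 for all genes. The 11090 genes of larger SD had a median of 0.205, and the share of all genes with a positive estimate is not given here. The signalling list had means of 0.33, 0.12 and 0.27 on GFP-plus arrays, against -0.50, -0.19 and 0.13 on GFP-minus arrays. The trafficking list had means of 0.37, 0.35 and 0.44, against -0.29, 0.13 and 0.13. The gates overlapped in the signalling list only. Between the 2 macrophage populations no pathway gene passed either, where 0.0721% of all genes did. The closest of each list were Cd36 at 1.43 ± 0.31, Ctsl at -0.49 ± 0.21, Irf8 at -0.28 ± 0.11, Nfkbia at 0.40 ± 0.12 and Ccl5 at 1.70 ± 0.34, with limma adjusted p-values of at least 0.121.

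The genes most like each receptor gene were taken as the 3 with the highest Pearson r over the 18 arrays, for the 9 genes that passed the F-test among the groups. These r values rest largely on the split between DCs and macrophages, so r within the 12 macrophage arrays is given as well, and all are descriptions of 1 set of arrays. Tlr7 was most like C6, Klra2 and Stab1, with r of 0.991, 0.983 and 0.978 over all arrays and 0.888, 0.781 and 0.703 among macrophages. Tlr8 was most like C6, Maf and Klra2, at 0.982, 0.980 and 0.978 over all arrays and 0.781, 0.852 and 0.802 among macrophages. The neighbouring genes thus shared 2 of their 3 nearest genes, and Tlr7 and Tlr8 correlated at 0.748 with each other among macrophages.

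Tlr2 was most like 3 chemokine genes, Ccl7, Ccl6 and Ccl12, at 0.968, 0.966 and 0.963 over all arrays and 0.836, 0.890 and 0.805 among macrophages. Tlr3 was most like Gpr141b, Hepacam2 and Gpr33, at 0.965, 0.959 and 0.956 over all arrays, but among macrophages only at 0.334, 0.025 and 0.372. Tlr11 was most like Hacd2, Tlr3 and Cdc14a, at 0.938, 0.934 and 0.929 over all arrays and 0.761, 0.634 and 0.751 among macrophages. Tlr4 was nearest to Plod1, Ikbke and Creb5, at 0.936, 0.923 and 0.916 over all arrays and 0.783, 0.657 and 0.662 among macrophages. The genes nearest to Tlr9 were Man2b2, Cebpb and Atp6ap1, at 0.957, 0.946 and 0.933 over all arrays, but among macrophages at 0.522, 0.445 and 0.330. Tlr12 was nearest to Hbp1, Ipo13 and Heatr1, at 0.919, 0.915 and 0.914 over all arrays and 0.760, 0.844 and 0.797 among macrophages. Those nearest to Tlr13 were Igsf6, Cyp2c55 and Cd302, at 0.908, 0.907 and 0.900 over all arrays and 0.631, 0.636 and 0.544 among macrophages. Of all pairs of the family, Tlr12 and Tlr13 had the highest r among the 12 macrophage arrays, 0.841, and Tlr2 and Tlr13 the lowest, -0.912. These r values pool groups whose means differ. Over the 6 DC arrays the same pairs were at 0.429 and -0.281, and Tlr7 with Tlr8 was at -0.512.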

How the data were processed

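Microarray expression was measured on 18 arrays, 6 groups of 3, from 1 ng of RNA amplified by the WT Ovation Pico method (NuGEN), per the labels' protocols. The deposited table holds log values of 33793 probes, read here as log2, each centred by the authors on its median over the arrays. The log base was inferred, since 1 probe spans 10.15 units, which exceeds the 4.82 of a 16-bit range in log10. Not given in the sources used here are the steps that summarised and normalized the arrays. Absolute signal and detection cannot be read. The unit the plan assumed, log2, was kept.

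Gene names come from GEO's platform annotation. Of the probes, 23521 had 1 symbol, 1814 several and 8458 none, and probes with 1 symbol were averaged per gene. limma 3.58.1 under R 4.3.3 fitted 1 mean per group to all arrays (lmFit, eBayes, 12 residual and 2.089 prior degrees of freedom), two-sided, with Benjamini-Hochberg adjustment over 22180 genes and a threshold of 0.05. No array was dropped or imputed. The 4 arrays of lowest weight included GFP-plus DC replicate 1 and GFP-minus replicate 1 of CD11b CD64 macrophages. The others were GFP-plus replicate 1 and GFP-minus replicate 2 of CD103 CD11b CD64 macrophages. Column medians ran from -0.038 to 0.049, interquartile ranges from 0.256 to 0.578, and no 2 columns were identical.

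All 10 receptor genes are named. From each pathway list up to 4 genes per comparison with the smallest p among those that passed are named, or 1 where none passed. Sort markers and the 3 genes most like each receptor gene are named too, while Tlr1, Tlr6 and Unc93b1 were added after their values were seen. The members and lists were chosen with earlier results of these data known. Of the pathway lists, those of signalling genes and negative regulators held genes without a named probe: 19 of 24 and 16 of 18 were measured. The signalling genes not measured were Irak4, Traf3, Chuk, Nfkb1 and Irf5, and the negative regulators Il1rl1 and Triad3a. The fitting code was tested on simulated data. Promoters are RefSeq sequences of GRCm38.p6. Alternatives are given in the closing section.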

Additional observations from a re-analysis of the deposited data

Results flagged for a closer look

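The GFP difference varied between the 3 populations by the limma F-test in 2 of 24 genes known to be induced through Toll-like receptors. None of the receptor genes passed this test, and 0.361% of all genes did. For Il12b the adjusted p was 0.0466, at rank 80 of the 80 genes that passed. Values under the other settings are not given for these 2 genes. Its values were 4.02, 4.03 and 3.82 in GFP-plus DCs, against 0.80, 0.93 and 1.17 in GFP-minus DCs. They were 0.48, -0.37 and 0.29 in GFP-plus CD103 CD11b CD64 macrophages, against -1.06, -0.80 and -1.71 in GFP-minus ones, and -0.38, -0.34 and -0.48 in GFP-plus CD11b CD64 macrophages, against -1.49, -0.15 and 0.15 in GFP-minus ones. For Il1a, which encodes interleukin-1 alpha, the adjusted p was 0.0183. Its values were -3.95, -3.56 and -3.52 in GFP-plus DCs, against -2.27, -0.50 and -1.62 in GFP-minus DCs. They were 0.67, 0.96 and 1.17 in GFP-plus CD103 CD11b CD64 macrophages, against 0.047, -0.047 and -0.15 in GFP-minus ones, and 0.96, 0.44 and 0.63 in GFP-plus CD11b CD64 macrophages, against 0.11, -0.60 and 0.50 in GFP-minus ones. Il1a was lower in GFP-plus than in GFP-minus cells among DCs, while its estimates in both macrophage populations were positive.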

How the results depend on the processing

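Outside leaving out single arrays, 10 other settings gave 599 values with the same direction and side of the threshold, 15 that lost it, 13 that gained it and 23 that reversed. Tlr2, Tlr3, Tlr7, Tlr8 and Tlr11 passed between DCs and each macrophage population under every setting run. None of the reversed values had passed as reported, and the cause was not tested. The count of receptor genes that passed between GFP gates of DCs, 1 as reported, was 0 under quantile normalization and with only the arrays compared, and 0 to 2 without single arrays. In CD103 CD11b CD64 macrophages it was 0 as reported, 1 under quantile normalization, with array weights, without the 4 arrays of lowest weight and with the probe of largest SD per gene, and 0 to 1 without single arrays. In CD11b CD64 macrophages it was 0 as reported and 1 under quantile normalization and with array weights. The test of whether the GFP difference varied between populations gave 0 as reported, 1 under these 2 settings, and 0 to 2 without single arrays. Between DCs and CD11b CD64 macrophages 10 passed as reported and 6 among GFP-minus cells alone. Between the macrophage populations 0 passed as reported, 1 under quantile normalization, 1 among GFP-plus cells alone, a setting chosen after seeing the data, and 0 to 1 without single arrays. Among GFP-minus cells alone Tlr12 was at 0.309 between DCs and CD103 CD11b CD64 macrophages.

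Reversed differences between GFP gates of DCs were 0.0744 for Tlr5 and 0.395 for Tlr13 under quantile normalization, 0.267 for Tlr13 with array weights, and 0.343 for Tlr13, -0.0158 for Tlr4 and -0.106 for Tlr7 without the 4 arrays. In CD103 CD11b CD64 macrophages they were 0.0771 for Tlr2 and 0.0353 for Tlr5 under quantile normalization, 0.0751 for Tlr5 and 0.228 for Tlr11 with array weights, and 0.348 for Tlr5, 0.0193 for Tlr11 and 0.0917 for Tlr3 without the 4 arrays. Without GFP-minus replicates 1 and 3 of that population, a setting chosen after seeing the data in which the 1 array left is assumed to vary like the others, Tlr11 was at 0.238. Between the macrophage populations Tlr3 was at 0.0748, 0.133 and 0.196 under these 3 settings and at 0.659 among GFP-minus cells. Tlr11 was at 0.11 under quantile normalization, 0.0836 without the 4 arrays and 0.489 among GFP-minus cells, where Tlr7 was at -0.103. Without single arrays, GFP differences of DCs ran from -0.0158 to 0.0613 for Tlr4, -0.106 to 0.203 for Tlr7 and -0.542 to 0.437 for Tlr13. Those of CD103 CD11b CD64 macrophages ran from -0.325 to 0.239 for Tlr2, -0.869 to 0.178 for Tlr3, -0.23 to 0.833 for Tlr4, -0.448 to 0.289 for Tlr5 and -0.744 to 0.463 for Tlr11, and that of Tlr5 in CD11b CD64 macrophages ran from -0.971 to 0.716. Between the macrophage populations Tlr3 ran from -0.274 to 0.249 and Tlr11 from -0.54 to 0.0942.

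Of all genes, 351 passed between GFP gates of DCs, 48 under quantile normalization and 85 with only the arrays compared. In CD103 CD11b CD64 macrophages 12 passed as reported, 62 under quantile normalization, 95 with array weights, 30 without the 4 arrays and 0 with only the arrays compared. In CD11b CD64 macrophages 6 passed as reported, 22 under quantile normalization and 53 with array weights. For the variation of the GFP difference 80 passed as reported, 32 under quantile normalization and 233 with array weights. Among GFP-minus cells alone 805 passed between DCs and CD103 CD11b CD64 macrophages, against 1758 as reported, and 731 between DCs and CD11b CD64 macrophages, against 1800 as reported. Between the macrophage populations 16 passed as reported, 33 under quantile normalization and 29 with array weights, and 3 with only the arrays compared. Without GFP-minus replicates 1 and 3 of CD103 CD11b CD64 macrophages 160 passed between their GFP gates, 81 between the macrophage populations and 241 for the variation of the GFP difference.

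Single arrays moved these counts and the shares taken from them. Between GFP gates of DCs 163, 711 and 222 genes passed without GFP-plus replicate 1, 2 or 3, and 118 and 122 without GFP-minus replicate 2 or 3. Those of CD103 CD11b CD64 macrophages gave 30 and 23 without GFP-plus replicate 1 or 2 and 60 without GFP-minus replicate 3. Those of CD11b CD64 macrophages gave 0 without GFP-plus replicate 2 or 3 or GFP-minus replicate 1, 1 without GFP-minus replicate 2 and 34 without GFP-minus replicate 3. For the variation of the GFP difference 9 of 18 arrays moved the count by over 1.5 times, from 41 (without GFP-minus DC replicate 3) to 226 (without GFP-plus DC replicate 2). Between the macrophage populations 42 passed without GFP-plus replicate 3 of CD103 CD11b CD64 macrophages. No array moved comparisons with DCs so far.

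Equal replicate numbers do not show that samples were paired: of 45 same-numbered pairs 13 had deviations correlated above 0.1, with r from -0.172 to 0.337. With the replicate number as a block 0 of 80 values of the receptor genes changed their call, and the counts of receptor genes that passed were 1, 0 and 0 for the GFP gates in DCs, CD103 CD11b CD64 and CD11b CD64 macrophages, 0 for their variation, 8 and 10 for DCs against the 2 macrophage populations, 0 between these and 9 among the 6 groups. Of all genes 121 then passed for the variation of the GFP difference.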
